A study of Homo sapiens with 4 samples.

Results

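The leukocyte integrins and adhesion ligands examined here are the products of 9 genes: the alpha subunits ITGAL (CD11a), ITGAM (CD11b), ITGAX (CD11c) and ITGAD (CD11d), their shared beta subunit ITGB2 (CD18), the intercellular adhesion molecules ICAM1, ICAM2 and ICAM3, and SELPLG, which encodes P-selectin glycoprotein ligand-1 (PSGL-1). Members were chosen by name, as every probe annotated with 1 of these genes that was no control spot and carried a quality weight above 0 on all 4 arrays. All 9 genes were found, among 17938 named genes analysed, and 12 of their 13 probes entered. The remaining probe, for ITGAD, was well above background on 0 of 4 arrays and had a weight of 0 throughout.

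The cells were THP1, an established monocytic line of acute myeloid leukaemia that carries the MLL-AF9 fusion gene. In the knockdown group the fusion transcript was targeted by siRNA-A on 1 array and by siRNA-B on another. The control group had 1 array each for control siRNA-1 and control siRNA-2, neither of which targets the fusion. In all 4 treatments siRNA was transfected on days 0, 3 and 6, the medium held 10% serum to day 6 and 0.5% from then on, and RNA was taken on day 8. Each array held a pool of 5 independent experiments, so that p-values measure the spread between pooled arrays. The arrays shared 1 slide, on which the controls took positions 3 and 4, siRNA-A position 2 and siRNA-B position 1, and treatment and slide position cannot be told apart. With 2 arrays against 2, the smallest 2-sided p of an exact permutation test is 0.333.

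Beta2 integrins are heterodimers in which a leukocyte alpha subunit pairs with ITGB2, and without ITGB2 the alpha subunits do not reach the cell surface. ITGAL with ITGB2 forms LFA-1, which binds ICAMs on other cells, and ITGAM or ITGAX with ITGB2 form complement receptors of monocytes, macrophages and granulocytes. PSGL-1 acts earlier in leukocyte recruitment, as the selectin ligand on which cells roll before integrins arrest them.

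No probe was annotated to the fusion itself, so the transcripts of its partner genes were looked at first. The brighter probe of MLLT3, the gene for AF9, had log2 intensities of 6.82 with siRNA-A, 6.87 with siRNA-B, 7.59 with control siRNA-1 and 7.61 with control siRNA-2. The brightest of 4 MLL probes was at 10.55, 10.64, 10.95 and 11.08 in the same order. Both probes had lower values on the knockdown arrays than on either control, and the log2 fold change was -0.76 for MLLT3 (adjusted p = 0.0639 in limma) and -0.41 for MLL (adjusted p = 0.403). The other MLLT3 probe was at -0.63 and the 3 other MLL probes were between -0.085 and 0.048. All of these probes can read transcripts of the unfused genes, and whether each lies in the part kept in the fusion was not examined.

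Among the 9 genes, ITGAL and ITGAX were the pair with the largest positive log2 fold changes after knockdown and ICAM2 had the most negative one, but 0 of 9 passed the call used for single genes, an unadjusted p under 0.005 in limma on the mean of identical spots. Of all 17938 genes, 239 passed it (1.33%), 113 of them higher after knockdown (0.630%). At an unadjusted p under 0.05 the members were ITGAL, ITGAX and ICAM2, 3 of 9, where 1435 of all genes passed (8.00%). An adjusted p under 0.05 was reached by 0 of 9 members and by 22 of all genes (0.123%). Both knockdown arrays lay above both control arrays for 3 of 9 members (ITGAL, ITGAX and ITGB2), against 15.0% of all genes, and below them for 1 of 9 (ICAM2), against 21.2%. The other 5 overlapped between groups. ITGB2 counts as above only by siRNA-A at 14.28897 against control siRNA-1 at 14.28874. With 9 genes these shares rest on 1 to 3 genes each, and they were not tested against the background. The median log2 fold change was 0.11 over the 9 members and -0.021 over all genes. Both medians depended on the processing and on single arrays. With the scaled background-subtracted signal the members were at 0.19 and all genes at -0.025, and after quantile normalization at 0.083 and 0.0034. The members were at 0.034 and all genes at -0.053 without siRNA-B, at 0.066 and 0.012 if control siRNA-2 was left out, at 0.19 and 0.012 if siRNA-A was, and at 0.20 and -0.056 if control siRNA-1 was. In RNA from whole cultures, fewer cells of a type and less RNA per cell cannot be told apart.

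**Figure D1:**
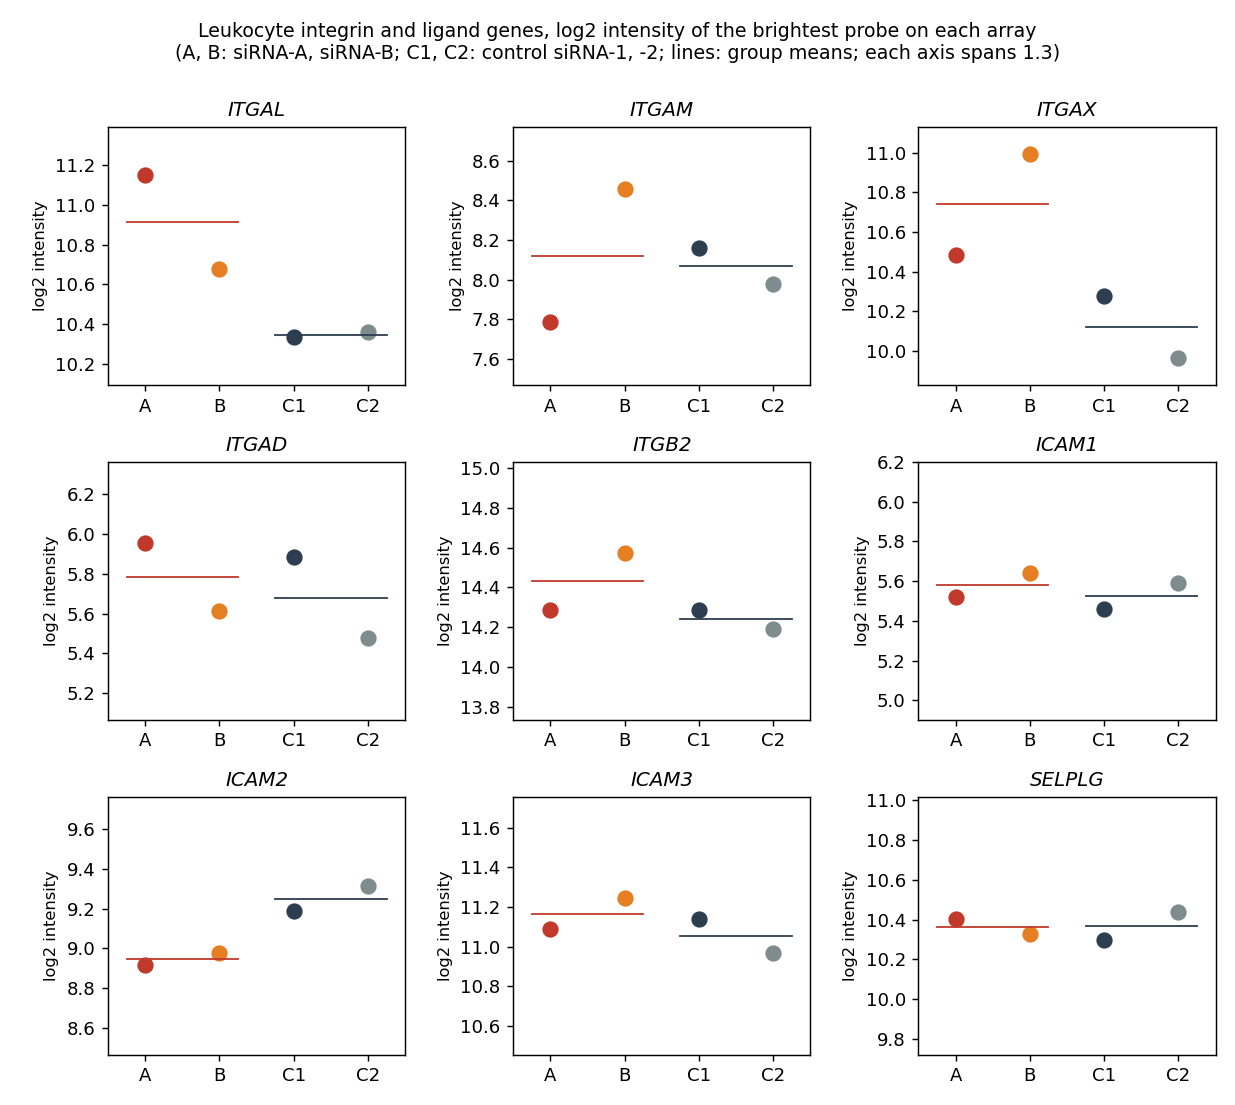
Log2 intensity of the brightest probe of each of the 9 genes on each array (A and B for siRNA-A and siRNA-B, C1 and C2 for the controls), with lines at the means of 2 arrays. Knockdown and control points are apart for ITGAL, ITGAX and ICAM2, touch for ITGB2, where siRNA-A and control siRNA-1 are both at 14.29, and overlap for the other 5 genes.

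ITGAL, the alpha subunit of LFA-1, was read by 1 probe on 1 spot per array (hg19 chr16:30533908-30533967). Its log2 intensity was 11.15 with siRNA-A, 10.68 with siRNA-B, 10.34 with control siRNA-1 and 10.36 with control siRNA-2. Both knockdown arrays were above both controls, which were nearly level, and siRNA-A was the higher of the knockdown arrays. The group means were 10.92 ± 0.34 (SD, n = 2) after knockdown and 10.35 ± 0.017 (SD, n = 2) in controls. The log2 fold change was 0.57, or 1.48-fold with a 95% interval of 1.16 to 1.90, and the adjusted p in limma was 0.405. By unadjusted p ITGAL ranked 269 of 17938 genes, and 0.557% of all genes had a larger positive log2 fold change. Its call depended on the setting. ITGAL passed the unadjusted threshold when dim probes were filtered out, in the fit on single spots, where its 1 spot left no identical spots to test, and without the siRNA-B array, where the log2 fold change was 0.81. Without the siRNA-A array it was 0.33 and did not pass.

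ITGAX, the CD11c subunit used as a marker of dendritic cells and of some macrophages, was read by a bright and a dim probe. The bright probe (hg19 chr16:31393951-31394010) was at 10.48 with siRNA-A, 10.99 with siRNA-B, 10.28 with control siRNA-1 and 9.97 with control siRNA-2. Here too both knockdown arrays exceeded both controls, with siRNA-B the higher of them, the reverse of the order seen for ITGAL. Means were 10.74 ± 0.36 (SD, n = 2) and 10.12 ± 0.22 (SD, n = 2). The log2 fold change of 0.62 corresponds to 1.53-fold (95% interval 1.15 to 2.04), with an adjusted p of 0.424 in limma. By unadjusted p ITGAX ranked 344 of 17938 genes and passed the threshold under 0 of 13 alternative settings of the fit, with log2 fold changes from 0.36 to 0.87. The dim probe lies upstream (hg19 chr16:31368753-31368812) and is annotated to another transcript record than the bright probe. Whether both read the same transcript was not examined. The dim probe was at 6.29, 6.61, 6.00 and 6.36 in the same order of arrays. Its groups overlapped, because control siRNA-2 exceeded siRNA-A, and its log2 fold change was 0.27 (95% interval -0.093 to 0.63).

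ITGAM, the CD11b subunit and a standard marker of myeloid maturation, was read by 1 probe printed on 10 spots of each array (hg19 chr16:31343816-31343875). Its mean log2 intensity was 7.78 with siRNA-A, 8.46 with siRNA-B, 8.16 with control siRNA-1 and 7.98 with control siRNA-2. The knockdown arrays lay on opposite sides of the controls, siRNA-A below both and siRNA-B above both. Against the mean of the controls the siRNA-A array differed by -0.28 and the siRNA-B array by 0.39, so that the log2 fold change of 0.052 (95% interval -0.40 to 0.51) averages 2 unlike arrays. The identical spots put the difference between the siRNAs above the scatter within an array. On the siRNA-A array the 10 spots ran from 7.55 to 8.02, and on the siRNA-B array from 8.23 to 8.63, with no overlap. On the control arrays they ran from 7.89 to 8.46 and from 7.75 to 8.23, overlapping each other. Spots of 1 array share their RNA and are no replicates of a treatment, so the difference between the siRNAs was not tested.

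ITGAD, the CD11d subunit of tissue macrophages, was left with 1 dim probe that spans an intron (hg19 chr16:31414957-31418885). It was at 5.95 with siRNA-A, 5.61 with siRNA-B, 5.88 with control siRNA-1 and 5.48 with control siRNA-2. The groups interleaved, and the controls were further apart, by 0.41, than the siRNA arrays, by 0.34. The probe was well above background on all 4 arrays, yet its intensities of 44.5 to 62.0 compare with a median local background of 19 to 22, which the deposited values still contain. The log2 fold change was 0.11 (95% interval -0.28 to 0.49).

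ITGB2, the subunit all the others need, had a bright probe on 10 spots (hg19 chr21:46305926-46305985) with mean log2 intensities of 14.29 for siRNA-A, 14.58 for siRNA-B, 14.29 for control siRNA-1 and 14.19 for control siRNA-2. Only siRNA-B stood clear of the controls, while siRNA-A and control siRNA-1 were level to 2 decimals. The means of 14.43 ± 0.20 and 14.24 ± 0.068 (SD, n = 2 each) differed by 0.19, which is 1.14-fold with a 95% interval of 0.930 to 1.40 and an adjusted p of 0.778 in limma. No spot was saturated.

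A dimmer ITGB2 probe is annotated to another transcript record than the bright one. It spans 5241 bases of the genome at hg19 chr21:46321625-46326865 on the minus strand, more than its own 60 bases. It was at 9.75 with siRNA-A, 10.06 with siRNA-B, 9.93 with control siRNA-1 and 9.81 with control siRNA-2, so siRNA-A lay below both controls and siRNA-B above both. Its log2 fold change was 0.033 (95% interval -0.27 to 0.34), smaller than that of the bright probe, and both probes had siRNA-B as the highest array. Whether the 2 probes read the same spliced form was not examined, so their values need not describe the same transcript. The sequence of the dimmer probe, 60 bases as the deposited table gives it, is shown because it joins separated stretches of the gene:
ITGB2 probe: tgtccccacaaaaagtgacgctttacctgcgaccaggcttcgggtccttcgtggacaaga

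**Figure D2:**
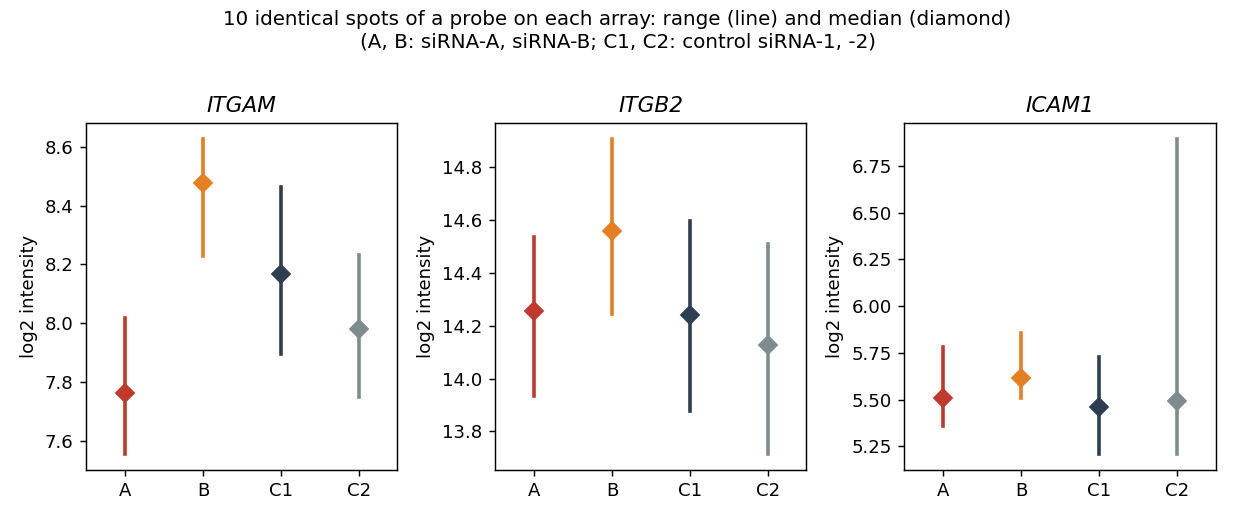
Range (line) and median (diamond) of the log2 intensities of the 10 identical spots of the ITGAM, ITGB2 and ICAM1 probes on each array. For ITGAM the siRNA-A spots end at 8.02, below the siRNA-B spots that start at 8.23, and for ICAM1 a single spot on control siRNA-2 reaches 6.89.

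Among the ligands, ICAM2, which binds LFA-1 and is made by endothelium, platelets and leukocytes, had the most even difference. Its log2 intensity was 8.92 with siRNA-A, 8.98 with siRNA-B, 9.19 with control siRNA-1 and 9.31 with control siRNA-2 (1 spot, hg19 chr17:62079960-62080019). Both knockdown arrays lay below both controls and close to each other. Means were 8.95 ± 0.043 and 9.25 ± 0.089 (SD, n = 2 each). The log2 fold change of -0.30 is 0.810-fold (95% interval 0.678 to 0.967), with an adjusted p of 0.547 in limma, and 4.63% of all genes had a more negative one. It was lower than in controls under 13 of 13 alternative settings, from -0.37 to -0.22, and passed the threshold of 0.005 under 0 of them.

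ICAM1, the inducible ligand of LFA-1 and of the ITGAM receptor, gave a signal near background in THP1 under these conditions. Over 10 spots (hg19 chr19:10396298-10396358) its mean log2 intensity was 5.52 with siRNA-A, 5.64 with siRNA-B, 5.46 with control siRNA-1 and 5.59 with control siRNA-2. The groups interleaved. Of the 10 spots, 5, 7, 7 and 8 were well above background on these arrays. A single spot on control siRNA-2 reached 6.89, an intensity of 119 where the other arrays had no spot above 58.0. The log2 fold change was 0.054 with the mean of the spots and 0.086 with their median, a choice made after seeing the data.

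ICAM3, the ICAM of resting leukocytes, was at 11.09 with siRNA-A, 11.24 with siRNA-B, 11.14 with control siRNA-1 and 10.97 with control siRNA-2 (hg19 chr19:10444654-10444713). The siRNA-A array lay between the controls, and only siRNA-B exceeded both. The log2 fold change was 0.11 (95% interval -0.16 to 0.39), and it was 0.19 without siRNA-A, 0.033 without siRNA-B, 0.20 without control siRNA-1 and 0.026 without control siRNA-2.

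SELPLG showed the smallest difference of the 9 genes. Its brighter probe (hg19 chr12:109016391-109016450) was at 10.40 with siRNA-A, 10.33 with siRNA-B, 10.30 with control siRNA-1 and 10.44 with control siRNA-2, and its dimmer probe (hg19 chr12:109017075-109017134) at 7.79, 7.65, 7.63 and 7.74. The knockdown arrays lay between the controls on the brighter probe, and on the dimmer one siRNA-A was slightly above both. The log2 fold changes were -0.0045 (95% interval -0.26 to 0.26) and 0.039 (95% interval -0.23 to 0.30). On the linear scale the interval of the brighter probe ran from 0.832-fold to 1.19-fold.

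**Figure D3:**
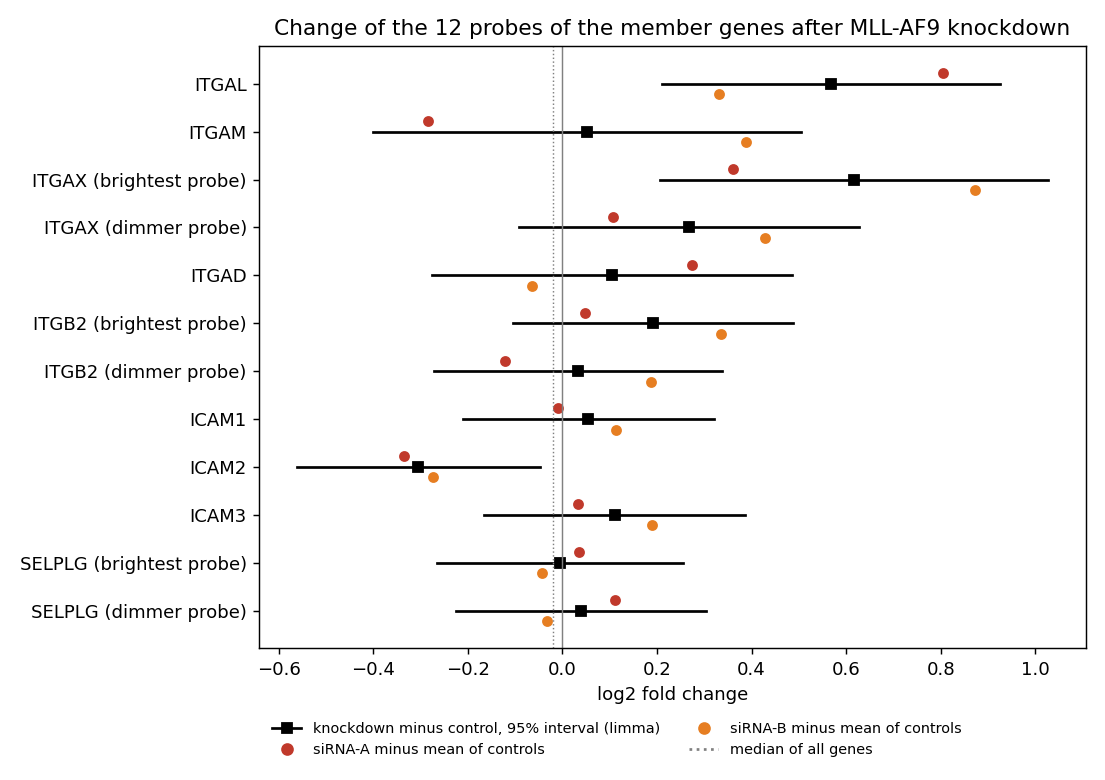
Log2 fold change of the 12 probes (squares, with 95% intervals from limma) and of the siRNA-A and siRNA-B arrays separately against the mean of the controls (circles), with the median of all genes at -0.021. The intervals of ITGAL, ITGAX (brightest probe) and ICAM2 leave out 0, and for ITGAM the siRNA-A array is at -0.28 and the siRNA-B array at 0.39.

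The siRNA-A and siRNA-B arrays often differed for these genes by as much as they differed from controls. The median absolute difference between them was 0.29 over the 9 members and 0.14 over all genes, while that between the controls was 0.14 and 0.11. ITGAL was higher with siRNA-A than with siRNA-B by 0.47, and ITGAX, ITGAM and ITGB2 were lower with siRNA-A, by -0.51, -0.67 and -0.29. The siRNA arrays were further apart than the control arrays for 4 of 9 members and 58.0% of all genes.

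In the RefSeq gene order ITGAM, ITGAX and ITGAD follow each other on chromosome 16, and ITGAL lies apart on the same chromosome. The protein-coding neighbour before ITGAM, PYDC1, had a log2 fold change of -0.30, and the one after ITGAD, COX6A2, one of 0.028. ITGAX at 0.62 thus stood between ITGAM at 0.052 and ITGAD at 0.11. Next to ITGAL, SEPHS2 was at -0.079 and ZNF768 at 0.24. ICAM1, ICAM4 and ICAM5 are likewise neighbours on chromosome 19, at 0.054, 0.075 and 0.12. None of these neighbours passed an unadjusted p of 0.005.

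RefSeq promoter windows (GRCh38.p14, 250 bases before to 50 from the first transcribed base) were on hand for 3 of the 9 genes, ITGAM, ICAM1 and ICAM3, and for 1 of 5 beta2 subunit genes. They were searched on both strands for GAGGAA (the core of sites for PU.1, the myeloid factor), GGGCGG (Sp1), TGANTCA (AP-1), GGAAATTCC (NF-kB) and TTCNNNGAA (STAT). The ITGAM window, chr16:31259725-31260024 on the plus strand, and the ICAM1 window, chr19:10270870-10271169 on the plus strand, are shown with the matches in capitals, ITGAM for the myeloid gene on which the siRNAs parted and ICAM1 for the gene near background:
ITGAM: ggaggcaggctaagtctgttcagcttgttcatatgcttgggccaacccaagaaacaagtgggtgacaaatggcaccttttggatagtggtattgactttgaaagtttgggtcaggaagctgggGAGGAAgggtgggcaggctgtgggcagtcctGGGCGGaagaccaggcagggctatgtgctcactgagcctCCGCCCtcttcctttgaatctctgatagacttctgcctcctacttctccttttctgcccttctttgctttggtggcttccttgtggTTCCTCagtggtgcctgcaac
ICAM1: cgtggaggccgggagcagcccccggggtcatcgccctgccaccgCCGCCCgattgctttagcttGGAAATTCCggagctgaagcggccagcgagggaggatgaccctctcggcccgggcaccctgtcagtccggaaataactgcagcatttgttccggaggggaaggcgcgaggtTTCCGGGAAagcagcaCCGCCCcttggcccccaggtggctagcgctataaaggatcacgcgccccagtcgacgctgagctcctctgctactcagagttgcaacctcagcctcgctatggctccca
The ITGAM window held 2 GAGGAA and 2 GGGCGG matches and 0 of the other motifs. The first GAGGAA match started at -127 from the first transcribed base, and the other, on the opposite strand, at 30. The ICAM1 window held 2 GGGCGG matches, a GGAAATTCC match starting at -186 and a TTCNNNGAA match starting at -75. Of the 3 ICAM3 windows, 2 held 1 GAGGAA match each, and 1 of these also held 2 GGGCGG matches. Of all 35116 windows in the table, 27.9% held GAGGAA, 45.0% GGGCGG, 7.71% TGANTCA, 0.461% GGAAATTCC and 7.66% TTCNNNGAA. A match describes letters only.

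The genes whose pattern over the 4 arrays was nearest to a member's were sought among 15831 other genes well above background on every array, by the root mean square difference of log2 intensities after each gene was set to its own mean. Nearest to ITGAL were GLT1D1 (0.060), COL8A2 (0.073) and PDK4 (0.078). Nearest to ITGAX were CD209 (0.072), DLX2 (0.077) and PTGER4 (0.084). CD209 encodes the dendritic cell lectin DC-SIGN, which binds ICAM3. It was at 8.32 with siRNA-A, 8.70 with siRNA-B, 7.93 with control siRNA-1 and 7.63 with control siRNA-2. Its log2 fold change was 0.73, against 0.51 for DLX2 and 0.46 for PTGER4. CD209, DLX2 and PTGER4 all had the order of arrays of ITGAX, which follows from choosing genes by this pattern. Nearest to ITGB2 were LSM10 (0.0094), ST8SIA5 (0.010) and NRIP1 (0.012). With 4 arrays and so many genes, small differences of this kind are easily reached.

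Of the 108 further adhesion genes in 8 lists, 91 were analysed, and 2 passed the call of an unadjusted p under 0.005 in limma, FCER2 and FGR. None reached an adjusted p under 0.05, and 9 had an unadjusted p under 0.05. Over all genes 1.33% and 8.00% did so at 0.005 and 0.05, and the counts were not tested against these shares. The median log2 fold change of the 91 was 0.0047.

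FCER2, the low-affinity IgE receptor CD23 and a ligand of the ITGAM and ITGAX integrins, was at 6.92 with siRNA-A, 6.67 with siRNA-B, 6.12 with control siRNA-1 and 5.73 with control siRNA-2. It rose by 0.88 on the log2 scale (1.83-fold, adjusted p = 0.141 in limma) and was the 1 gene of 6 analysed in its list of further integrin ligands to pass. FGR, a Src family kinase that signals downstream of beta2 integrins, was at 11.05, 11.04, 10.53 and 10.40 on 10 spots, with the knockdown arrays level and above both controls. It rose by 0.58 on the log2 scale (adjusted p = 0.182 in limma), as 1 of 28 genes of downstream signalling and linkage to pass. FCER2 passed under 9 of 13 alternative settings and FGR under 8 of 13, with the same direction under all 13. With the scaled background-subtracted signal neither passed, and their log2 fold changes were 1.46 and 0.65. After normexp with quantile normalization both were at 0.61. FCER2 was dim on the control arrays, near the 5.48 to 5.95 of ITGAD, though well above background on all 4 arrays. The size of its difference depended on how background was handled. Whichever of the 4 arrays was left out, FGR was no longer called (0.52 to 0.64), while FCER2 lost it without the siRNA-A array (0.75), the siRNA-B array (1.00) or the control siRNA-2 array (0.68). Without siRNA-B, JAM3 among the ligands was at 1.57 and RAC2, in the list of FGR, at -0.87. With all 4 arrays they were at 0.75 and -0.39, and neither was called. A dimmer RAC2 probe was at -0.32 with all 4 arrays, and both knockdown arrays lay below both controls on it.

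In the remaining 6 lists 0 genes passed, but with the unscaled background-subtracted signal 1 further alpha subunit did, ITGA6 at -1.43. With the deposited intensities ITGA6 was at -0.092 and was well above background on 1 array. Of 11 further alpha subunits analysed, both knockdown arrays lay above the controls for 3 and below for 6, against 15.0% and 21.2% of all genes and not tested against them, with ITGA7 at 0.35 and ITGA11 at -0.30 as the extremes among genes well above background on all arrays. Of 5 further beta subunits, ITGB7, the partner of ITGA4 and ITGAE, was at 0.37 and ITGB1 at -0.24. Of 20 genes of integrin activation from inside the cell, FERMT3 (kindlin-3), which binds the tail of ITGB2, was at 0.23 and TLN2 at -0.19. Of 6 selectins and their ligands, CD44 was at 0.15 and GLG1 at -0.15. Of 11 enzymes that modify PSGL-1, ST3GAL6 was at 0.29 and C1GALT1 at -0.10, or -0.26 on its dimmer probe. Of 4 genes that link ICAMs and PSGL-1 to actin, ARHGDIB was at 0.19 and RDX (radixin) at -0.33, or -0.081 on its dimmer probe. Apart from ITGA6, adjusted p of these 12 genes in limma ran from 0.461 to 0.907.

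**Figure D4:**
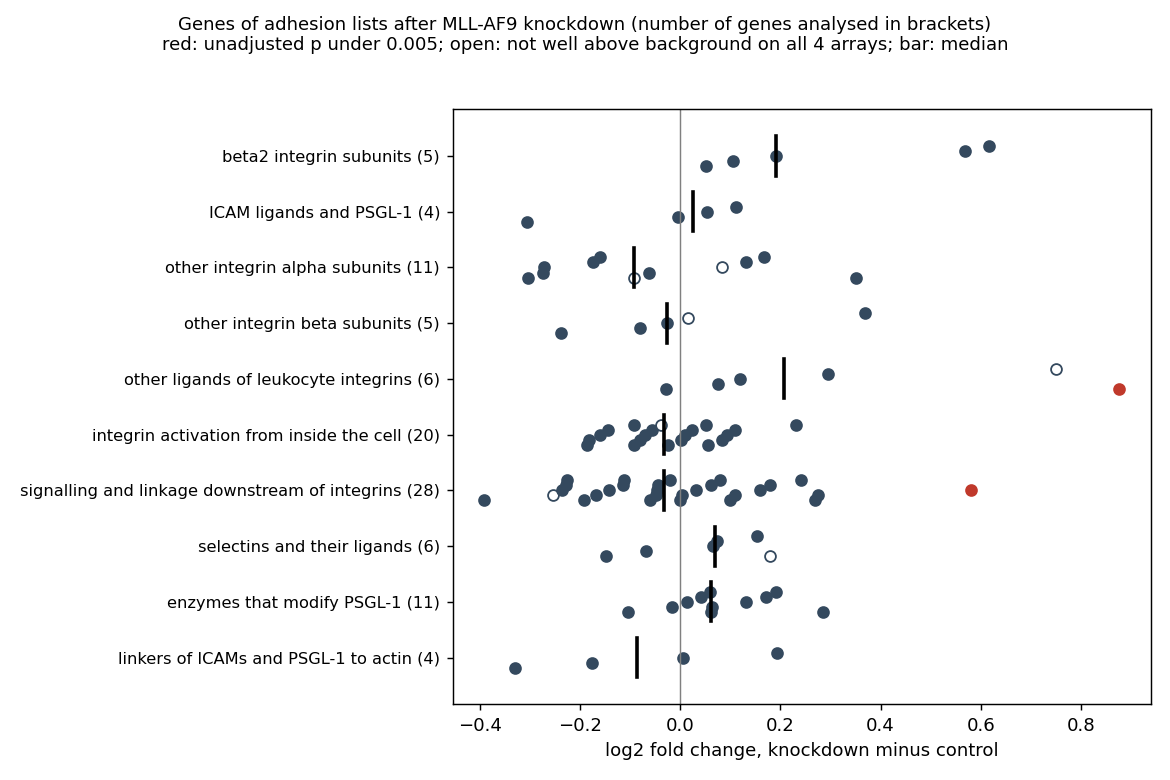
Log2 fold change after knockdown of each analysed gene of the 2 member lists and of 8 further adhesion lists, with list medians as bars. FCER2 at 0.88 and FGR at 0.58 are the genes called.

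THP1 is of monocytic origin, and 6 of 9 monocytic marker genes were analysed, all well above background on every array. Their summed intensity was 26220 with siRNA-A, 30138 with siRNA-B, 25512 with control siRNA-1 and 24788 with control siRNA-2. CD14, the lipopolysaccharide co-receptor of monocytes, was at 8.39, 8.71, 7.52 and 7.47 and rose by 1.05 on the log2 scale (adjusted p = 0.0355 in limma), the 1 gene of the 6 that was called. MNDA was at 0.44, CSF1R at 0.19, CD33 at -0.11, CD68 at -0.15 and CD86 at -0.44. The part of monocytic marker levels in the values of ITGAL and ITGAX was not tested. Of the markers of other cells, 0 of 3 neutrophil, 0 of 5 T cell, 0 of 4 B cell, 0 of 3 NK cell, 0 of 2 endothelial and 0 of 3 erythroid genes analysed were called, and none of 3 dendritic cell markers had a weight above 0 on all arrays.

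**Figure D5:**
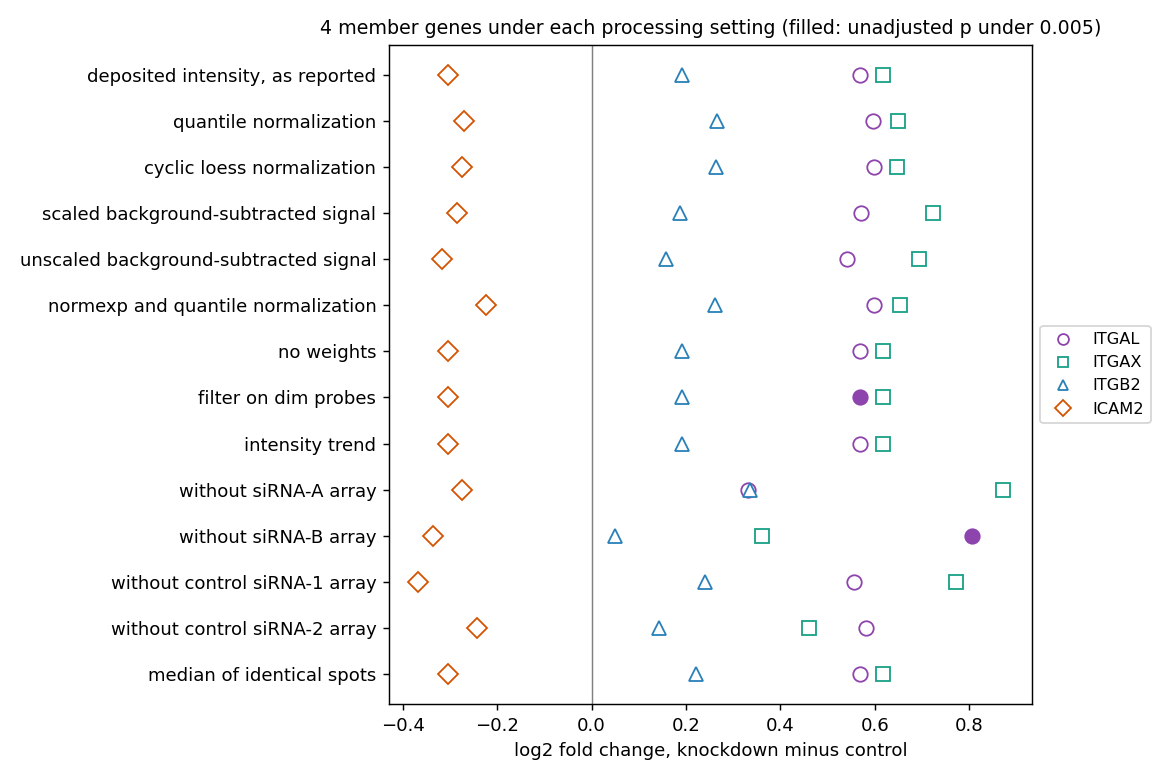
Log2 fold change of ITGAL, ITGAX, ITGB2 and ICAM2 with the deposited intensities and under 13 alternative settings, filled where the unadjusted p was under 0.005. ITGAL runs from 0.33 to 0.81 and is called under 2 of the 13, ITGAX runs from 0.36 to 0.87, ITGB2 from 0.049 to 0.34 and ICAM2 from -0.37 to -0.22.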

How the data were processed

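Gene expression in THP1 cells was measured on 4 single-colour Agilent arrays, 2 knockdown and 2 control. The authors extracted spots with Agilent Feature Extraction 10.5.1.1 and deposited intensities without background correction or normalization between arrays, and a weight per spot. The intensities were checked against the scanner files, where 100% of them equalled the median signal. Of 44495 spots, 1377 were controls, and 33323 spots of 26219 probes had weights above 0 on all arrays. Of the 33323 spots, 92.19% were well above background with siRNA-A, 90.6% with siRNA-B, 96.16% with control siRNA-1 and 96.08% with control siRNA-2. What this difference between the groups adds to the values of dim probes was not tested. Of 61 scanner columns 51 were not used. Log2 values of identical spots were averaged and fitted by limma 3.58.1 (R 4.3.3) using mean deposited weights and no covariates. Tests were 2-sided, with Benjamini-Hochberg adjusted p over all probes. The brightest probe stood for a gene, called at an unadjusted p under 0.005 on spot means. The threshold is that of the study's methods, whose further test over identical spots was applied only in an alternative fit on single spots. Named are all members, genes called in each further list or else its most positive and most negative among genes well above background on all arrays, cell type markers, and the nearest patterns of ITGAL, ITGAX and ITGB2. JAM3, RAC2 and ITGA6 are named because they passed in an alternative only. Neighbouring genes and the ICAM promoters were chosen after the data were seen. The members and lists were chosen with earlier results of these data known. The fit was tested on simulated data. Alternatives were other normalizations and background corrections, unweighted fits, dim probes left out, an intensity trend, other call rules, another probe, medians of identical spots, and each array left out.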

Additional observations from a re-analysis of the deposited data

Results flagged for a closer look

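On 2 member probes the siRNAs lay on opposite sides of both controls. For ITGAM, siRNA-A minus siRNA-B was -0.67 on the log2 scale, with 7.78 and 8.46 against controls of 8.16 and 7.98. For the dimmer ITGB2 probe it was -0.31, with 9.75 and 10.06 against 9.93 and 9.81. Neither difference between the siRNAs was tested, as each siRNA has 1 array. Among all 17938 genes, 18.3% had the siRNAs on opposite sides of both controls by their brightest probe, and 1 of 9 members (ITGAM).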

How the results depend on the processing

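The number of member genes called was 0 as reported, 1 (ITGAL) with dim probes filtered out, 1 (ITGAL, which has 1 spot and so met the threshold alone) in the fit on single spots, 3 at an unadjusted p under 0.05, and 0 to 1 with each array left out. Over all probes 345 were called, 411 with dim probes filtered out, 400 in the fit on single spots, 226 with the scaled background-subtracted signal, 31 at an adjusted p under 0.05, 2112 at an unadjusted p under 0.05, and 78 to 242 with an array left out, where the lone array is assumed to vary like the others. The share of called probes that were higher after knockdown was 44.3%, and it ran from 26.9% without control siRNA-2 to 56.2% without siRNA-B over 13 alternatives. Of 156 log2 fold changes of the 12 member probes under 13 alternatives, 138 kept direction and side of the threshold, 2 passed it in addition (ITGAL), and 16 changed sign, all of genes not called. With an array left out, ITGAM ran from -0.28 to 0.39, ITGAD from -0.098 to 0.31, the dim ITGAX probe from 0.089 to 0.45, the bright ITGB2 probe from 0.049 to 0.34 and the dimmer one from -0.12 to 0.19, ICAM1 from -0.012 to 0.12, and SELPLG from -0.075 to 0.066 and, on its dimmer probe, from -0.033 to 0.11. ICAM1 was -0.020 after normexp with quantile normalization, and SELPLG 0.031, 0.025 and 0.013 after quantile, cyclic loess and normexp with quantile normalization. The cause was not tested. No paired analysis was possible because the groups share no replicate numbers. The number of arrays and, for ITGAD, ICAM1, the dim ITGAX probe and FCER2, signal over background limit the precision.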

Other observations

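JAM3, a ligand of the ITGAM integrin, was high on the siRNA-A array only, at a log2 intensity of 6.54 against 4.91 with siRNA-B, 5.09 with control siRNA-1 and 4.86 with control siRNA-2, and was well above background on that array alone. This gene was picked after its values were seen. Its log2 fold change was 0.75 (adjusted p = 0.721 in limma). Without siRNA-B it was 1.57, and without siRNA-A it was -0.066. It was 2.586 and 2.555 with the scaled and unscaled background-subtracted signal, and 0.46 after normexp with quantile normalization. Since the other arrays were not well above background, the size of this difference is uncertain. The siRNA-A array has no replicate.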
